A study of Mus musculus with 2 samples.

Results

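The genes described here are 10 members of the IL-6 and IL-4 signalling routes: the receptor chains Il6ra, Il6st and Il4ra, the kinase Jak2, the transcription factors Stat3, Stat4 and Stat6, and the inhibitors Socs1, Socs2 and Socs3. They were taken by gene symbol from the 23282 rows of the deposited tables, all 10 were found, and each had a single row. Naïve CD4+ T cells from the spleens of wild-type C57BL/6 mice (female, 7 to 10 weeks old) were activated with antibodies to CD3ε (5 μg/ml) and CD28 (2 μg/ml). They were cultured under conditions that induce regulatory T cells (iTreg cells), with IL-2 at 1 ng/ml and TGF-β1 at 5 ng/ml. Both cultures also held the antibodies 11B11 against IL-4 and XMG1.2 against IFN-γ, at 10 μg/ml each. The control culture received DMSO and the other 10 μM Tubastatin A, an inhibitor of the deacetylase HDAC6 that is called TSA here and is not the pan-HDAC inhibitor trichostatin A. RNA was taken on day 1 from 1 culture of each kind, so there was 1 library per condition and no value below has a replicate check.

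IL-6 binds its own receptor chain, IL-6Rα (Il6ra), and the pair engages gp130 (Il6st), a signalling chain that is shared by a family of cytokines. IL-4 binds IL-4Rα (Il4ra), which pairs with the common γ chain or with IL-13Rα1. Kinases of the JAK family bound to these chains phosphorylate STAT proteins, which then enter the nucleus: STAT3 mainly after IL-6, STAT6 after IL-4 and STAT4 after IL-12. In CD4+ T cells these factors take part in the choice of the Th17, Th2 and Th1 fates, and IL-6 is known to divert TGF-β-treated cells from Treg towards Th17 cells. SOCS proteins are induced by the same cytokines and act as feedback inhibitors of receptors and JAKs.

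None of the 10 genes passed 2-fold in either direction when the TSA and control libraries were compared, while 14.7% of all 12164 genes tested did. Socs2 was closest, with 0.525 of its control level in the TSA library. Il6ra was lower (0.705-fold) and its partner Il6st higher (1.34-fold), and Socs1 and Socs3 were higher while Socs2 was lower. Stat3, the most abundant of the 10, differed by 1.05-fold. A gene is said to differ beyond counting error when the 95% interval of its fold change, exact on the reads of the 2 libraries, excludes no change. By this rule 4 genes were higher (Il6st, Stat3, Socs1 and Socs3) and 4 lower (Il6ra, Il4ra, Stat6 and Socs2). That rule is met by 56.1% of all tested genes (28.1% higher and 28% lower), so a call of this kind is common at this depth, and it compares 2 libraries, not the conditions. The median log2 difference of the 10 genes was 0.064, and that of all tested genes was 0.015. All 10 genes averaged 100 normalized counts or more over the libraries, and the 8188 genes at that level are a nearer background. Of these, 2.78% passed 2-fold (1.48% higher and 1.31% lower), and 59.9% differed beyond counting error (23.4% higher and 36.5% lower). Their median log2 difference was -0.058.

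**Figure D1:**
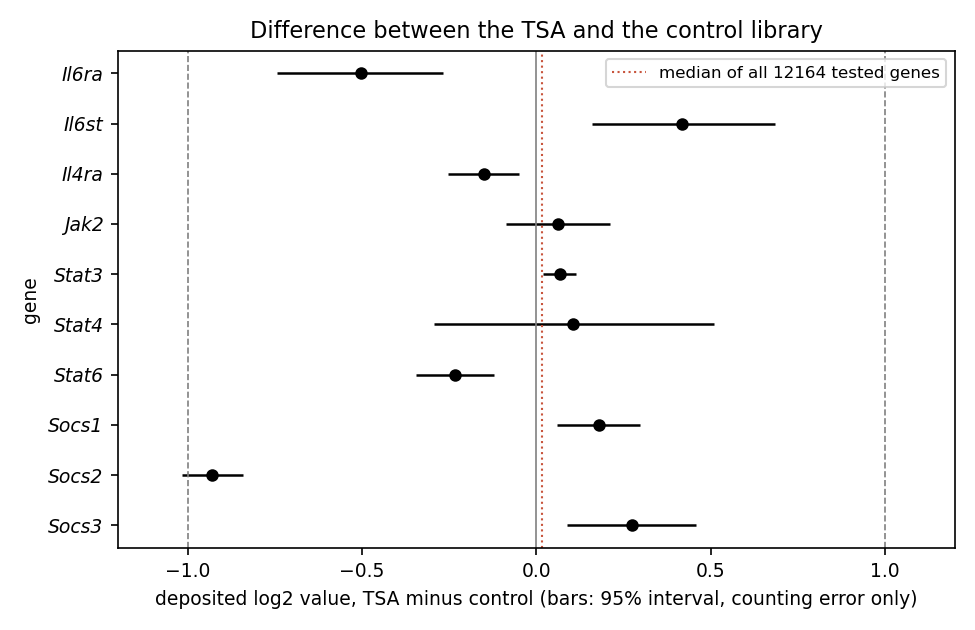
Difference of each gene between the libraries, as the deposited log2 value in TSA minus that in control (x axis), with its 95% interval for counting error (bars). The dashed lines stand at 2-fold and the dotted line at the median of all 12164 tested genes. Socs2 lies farthest from 0, at -0.93, and Il6st farthest on the other side, at 0.42.

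The libraries held 10846097 (control) and 10432519 (TSA) reads on genes. The markers of T cells were present in both, with 6 of 6 detected (13992 and 14625 reads in sum). Those of Treg cells (4 of 4) summed to 12057 and 9926 reads, with Foxp3 at 1633 and 965. Most of that sum was Il2ra (8851 and 7511), and Ctla4 had 1051 and 933 reads. Ikzf2 had 522 and 517, and the interval of its fold change (0.867 to 1.11) included no change. Genes of other cell types had few reads: 3 B cell genes summed to 12 and 14 reads, 6 myeloid genes to 62 and 40 (Cd68 alone had 32 and 19), and 2 NK cell genes to 0 and 1, with Klrb1c at 0 in both, Ms4a1 and Ncr1 at 0 in the control library and Adgre1 and Itgax at 0 in the TSA library. The 2 CD8 genes summed to 80 and 87 reads. The part of these marker differences in the results below was not tested. In RNA from a whole culture, fewer cells of a type and less RNA per cell cannot be told apart.

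Reads were counted near the 3′ end of transcripts, where the kit primes, so a transcript gives about 1 read whatever its length, and the levels below were not divided by length. In the control library the order of levels was Stat3, Socs2, Il4ra, Stat6, Socs1, Jak2, Socs3, Il6ra, Il6st and Stat4, and each neighbour in that order differed beyond counting error. In the TSA library the order was Stat3, Socs2, Il4ra, Socs1, Stat6, Jak2, Socs3, Il6st, Il6ra and Stat4. Here Socs1 and Stat6 could not be separated (ratio 1.03, interval 0.95 to 1.11), nor could Il6st and Il6ra (1.13, 0.954 to 1.35). Stat3 stood at 2.24 times Socs2 in control and at 4.47 times Socs2 in TSA.

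**Figure D2:**
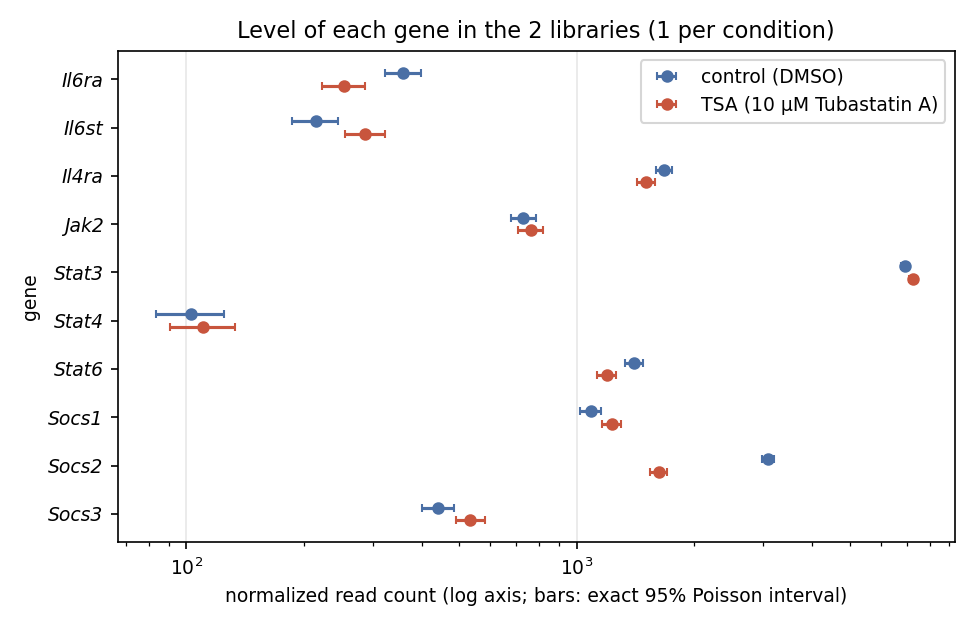
Normalized read count of the 10 genes (log axis) in the control library and the TSA library, with exact 95% Poisson intervals, which cover counting error only. Stat3 is highest at 6921 and 7250 and Stat4 lowest at 102.5 and 110.4, and the points of Socs2 are the farthest apart, at 3086 and 1620.

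Among the receptors, Il6ra gave 357 control reads and 254 TSA reads, or 0.705-fold in TSA relative to control (95% interval 0.597 to 0.83). Il6st gave 213 control reads and 288 TSA reads, or 1.34-fold (1.12 to 1.61). The pair thus went opposite ways. There were 1.68 Il6ra reads per Il6st read in control and 0.882 in TSA. The ratio of these ratios was 0.526 (0.411 to 0.673), and a ratio within a library does not depend on how the libraries were scaled to each other. Of the 8188 genes averaging 100 normalized counts or more, 717 had a lower log2 difference than Il6ra and 850 a higher one than Il6st. Il4ra gave 1661 control reads and 1511 TSA reads, or 0.901-fold (0.84 to 0.966). Its partner Il2rg, the common γ chain, had 4506 and 4275 reads, or 0.94-fold (0.901 to 0.98). The Il4ra to Il2rg ratio was 0.369 in control and 0.353 in TSA, and the interval of its change, 0.883 to 1.04, included no change. With scaling to total reads, the interval for Il4ra itself (0.882 to 1.01) also included no change.

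In the GENCODE M21 annotation of GRCm38 (mm10, the build in the submitters' processing notes) all 10 are protein-coding genes. Il6ra lies on the minus strand of chromosome 3 from 89864059 to 89913196, Il6st on the plus strand of chromosome 13 from 112464070 to 112510086, and Il4ra on the plus strand of chromosome 7 from 125552120 to 125579474. Jak2 lies on the plus strand of chromosome 19 from 29251828 to 29313080. Stat3 (chromosome 11, minus strand, 100885098 to 100939540), Stat4 (chromosome 1, plus strand, 51987148 to 52107189) and Stat6 (chromosome 10, plus strand, 127642986 to 127660957) are in separate places, and so are Socs1 (chromosome 16, minus strand, 10782240 to 10785536), Socs2 (chromosome 10, minus strand, 95385362 to 95417180) and Socs3 (chromosome 11, minus strand, 117966079 to 117970047). The ends of Stat3 and Stat5a, which face each other on opposite strands, share 72 exonic bases, all at the 3′ end of Stat3. Stat6 shares 40 bases at its 3′ end with Nab2. Whether the counting used strand is not given in the sources used here, so reads in these shared ends may be counted for either gene. Stat5a had a log2 difference of 0.24 and Nab2 (1081 and 887 reads) of -0.30.

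Jak2, a kinase that binds gp130 and many other receptors, gave 726 control reads and 765 TSA reads, or 1.04-fold (0.941 to 1.16) that included no change. Jak1, the kinase used by both the IL-6 and the IL-4 receptor, was far more abundant, with 4616 and 5177 reads, or 1.11-fold (1.07 to 1.16). Jak3, which binds the common γ chain, had 575 and 459 reads (0.791, 0.698 to 0.895). Tyk2, a JAK kinase of the type I interferon and IL-12 receptors, had 262 and 241 reads (0.911, 0.761 to 1.09). Jak2 made up 11.7% of the reads of the 4 JAK genes in control and 11.5% in TSA.

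Stat3 gave 6887 control reads and 7286 TSA reads, or 1.05-fold (1.01 to 1.08). This is the smallest difference among the 10 that exceeded counting error, and it rests on the largest count. Stat4 had 102 and 111 reads, or 1.08-fold (0.816 to 1.42), so a difference was not detectable at this depth. Stat6 had 1396 and 1199 reads, or 0.851-fold (0.787 to 0.919). There were 4.93 Stat3 reads per Stat6 read in control and 6.08 in TSA, a change of 1.23 (1.13 to 1.34). Relative to Stat5b, Stat3 went the other way, from 4.34 to 3.79 reads per read, a change of 0.874 (0.811 to 0.942). The change relative to Stat4 was 0.972, and its interval (0.734 to 1.29) included no change.

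Set among the summed reads of Stat2, Stat3, Stat4, Stat5a, Stat5b and Stat6, Stat3 held 56.4% in the control library (exact binomial 95% interval 55.6% to 57.3%) and 55.2% (54.3% to 56%) in the TSA library. Stat6 went from 11.4% (10.9% to 12%) to 9.08% (8.59% to 9.58%), and Stat4 held 0.836% and 0.84%. The 3 that are not among the 10 genes were higher beyond counting error, as were 28.1% of all tested genes: Stat2, a mediator of type I interferon signals (108 and 155 reads, fold change 1.42), and Stat5a and Stat5b, which act downstream of IL-2 (1.18 and 1.2).

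Of the SOCS genes, Socs2 was lower and Socs1 and Socs3 higher. Socs2, which is induced through STAT5 and is known as an inhibitor of growth hormone signalling, gave 3071 control reads and 1628 TSA reads. Its fold change was 0.525 with an interval of 0.494 to 0.558, which reaches just past 2-fold. Of the 8188 genes averaging 100 normalized counts or more, 134 had a lower log2 difference than Socs2, and of the 2171 averaging 1000 or more, 14 did. Socs1, which blocks the JAK kinases, had 1079 and 1234 reads, or 1.13-fold (1.04 to 1.23). Socs3, which binds gp130 and limits IL-6 signalling through STAT3, had 439 and 536 reads, or 1.21-fold (1.06 to 1.37).

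Of the summed reads of Socs1, Socs2 and Socs3, Socs2 held 66.9% in the control library (65.5% to 68.3%) and 47.9% in the TSA library (46.2% to 49.6%). The Socs2 to Socs1 ratio went from 2.85 to 1.32, a change of 0.464 (0.418 to 0.514), and the Socs2 to Socs3 ratio from 6.99 to 3.04, a change of 0.434 (0.377 to 0.501). Between Socs1 and Socs3 the ratio was 2.46 in control and 2.3 in TSA, and the interval of its change (0.803 to 1.09) included no change. Cish, the eighth gene of the family and another gene induced through STAT5, went the other way from Socs2, with 4210 and 5256 reads and a fold change of 1.24 (1.19 to 1.29). The Socs2 to Cish ratio was 0.73 in control and 0.31 in TSA. Socs4 (94 and 64 reads) and Socs5 (93 and 62 reads) were lower, and the intervals of Socs6 (191 and 194 reads) and Socs7 (1124 and 1086 reads) included no change. The family as a whole summed to 10301 and 10060 reads, so its composition differed more than its sum. These shares and ratios were chosen after the values were seen.

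**Figure D3:**
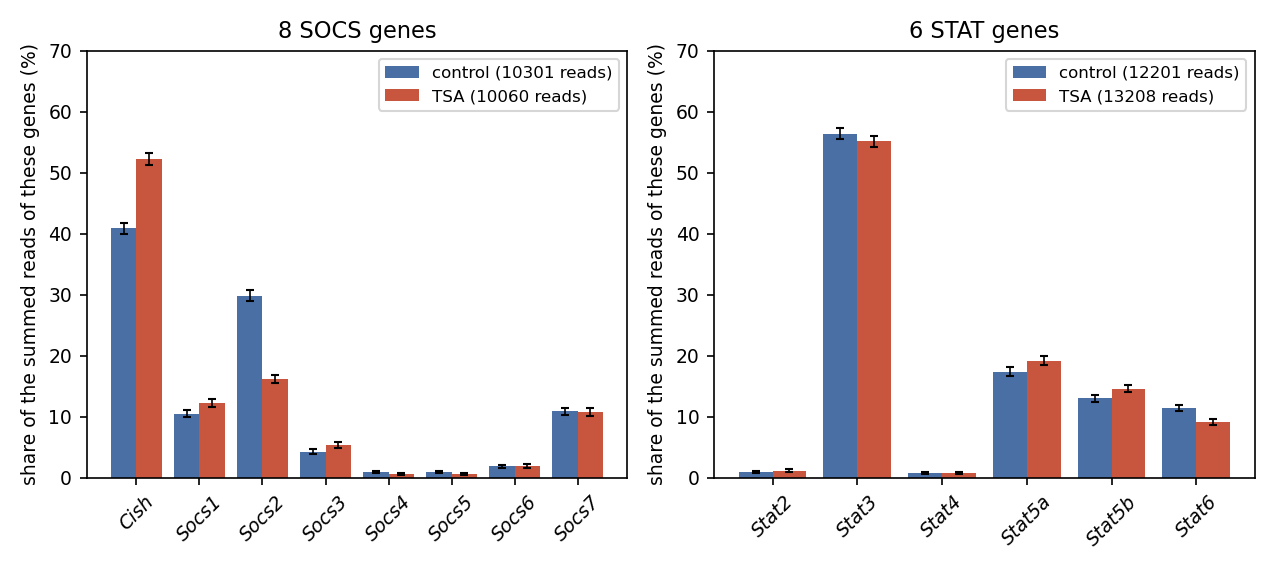
Share of the reads of the 8 SOCS family genes (left) and 6 STAT genes (right) held by each gene, in percent, in the control and the TSA library, with exact binomial 95% intervals. Socs2 goes from 29.8% to 16.2% and Cish from 40.9% to 52.2%, while Stat3 is at 56.4% and 55.2%.

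The RefSeq promoter windows of Socs1 and Socs3 are printed here. The pair was picked after both were seen to be higher beyond counting error, as were 28.1% of all tested genes. Feedback by STAT proteins is known to act on the promoters of such genes, and its part in these differences was not tested. Windows of 250 bases before to 50 after the transcription start were taken from RefSeq (GRCm38.p6), 5′ to 3′ on the strand of the gene, and 9 of the 10 genes had one, Stat4 with 2 starts, while Socs2 had none. Searched were TTCNNNGAA, the general STAT motif, with 3 free bases between TTC and GAA, and the same letters with 4 free bases, the spacing that STAT6 prefers. Both are palindromes and so read the same on both strands, and matches of the 2 could overlap. Capitals mark a match. The windows are chr16:10785487-10785786 (minus strand) for Socs1 and chr11:117969317-117969616 (minus strand) for Socs3.
Socs1: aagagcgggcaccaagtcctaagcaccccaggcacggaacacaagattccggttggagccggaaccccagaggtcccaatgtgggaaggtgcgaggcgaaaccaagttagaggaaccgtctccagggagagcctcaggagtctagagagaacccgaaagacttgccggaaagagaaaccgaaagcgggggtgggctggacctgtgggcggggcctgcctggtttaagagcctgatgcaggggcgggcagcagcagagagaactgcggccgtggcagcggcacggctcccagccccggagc
Socs3: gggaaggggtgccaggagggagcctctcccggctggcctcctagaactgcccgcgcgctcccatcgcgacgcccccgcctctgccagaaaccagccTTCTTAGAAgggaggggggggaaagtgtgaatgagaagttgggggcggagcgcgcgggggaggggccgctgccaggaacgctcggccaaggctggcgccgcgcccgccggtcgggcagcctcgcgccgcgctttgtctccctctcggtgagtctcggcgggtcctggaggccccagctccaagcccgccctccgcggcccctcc
The Socs3 window held the only match among the 10 windows, TTCTTAGAA, at 154 to 146 bases upstream of the RefSeq start. That start lies 681 bases downstream of the 5′ end that GENCODE M21 gives for Socs3, so in that annotation the whole window, the match included, is inside the gene. Of all 32851 windows in the table, 8.3% held the first motif and 6.95% the second. The window of Socs3 was 73.3% G or C and that of Socs1 63.3%.

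The wider JAK-STAT pathway was described with lists of ligands, receptors, kinases and inhibitors. Over these lists and those of STAT-induced genes, 63 of 74 genes had at least 10 reads in a library, of which 4 passed 2-fold upward and 2 downward (background 11.5% and 3.15%), and 21 were higher and 16 lower beyond counting error, near the background of 28.1% and 28%. Their median log2 difference was 0.15, and that of all tested genes 0.015. Of the 4 upward genes, Il4, Il13ra1 and Il10ra had under 10 reads in control and entered only through the TSA library, where they are high. With 10 reads required in both libraries, 59 genes were left, of which 1 (Il17f) was past 2-fold upward and 2 (Ccr4 and Il24) downward, against 4.8% and 2.04% of all genes so filtered. Of 11 ligands and receptors of the gp130 family, 5 were tested and none differed beyond counting error, with log2 differences from 0.035 to 0.39. Il6 itself gave 9 control reads and 6 TSA reads, too few to be tested. Lif, a gp130 ligand, had 515 and 583 reads, more than the Il6ra and Il6st chains.

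On the IL-4 side, 4 of 5 genes were tested. Il13ra1 and Il4 were past 2-fold upward (11.5% of all tested genes), but both had under 10 reads in control, so that they could enter only by being higher in TSA. Il13ra1, which with IL-4Rα forms the receptor for IL-4 and IL-13 found mainly outside T cells, gave 2 control reads and 18 TSA reads (interval of the ratio 2.13 to 79.2). Il4 had 1 and 14 reads (2.11 to 586). Il13 had 6 and 11 reads (0.615 to 5.98) and was likewise tested only through its TSA reads. Il2rg was lower, as given above.

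Of 13 other cytokine receptors, 10 were tested, 3 were higher and 3 lower beyond counting error, near the 28.1% and 28% of all tested genes. Il21r, whose ligand IL-21 also acts through STAT3, had 1636 and 1065 reads, or 0.645-fold (0.596 to 0.697). Il12rb1, a chain of the IL-12 and IL-23 receptors, had 416 and 295 reads (0.703, 0.603 to 0.817), and Il10rb had 172 and 131 (0.755, 0.596 to 0.952). Il10ra, the ligand-binding chain of the IL-10 receptor, had 9 and 27 reads, or 2.77-fold (1.36 to 7.18), the one gene of this list past 2-fold, and it was tested only through its TSA reads. Both chains of the interferon-γ receptor were higher, Ifngr1 with 229 and 288 reads (1.24, 1.04 to 1.49) and Ifngr2 with 92 and 144 (1.54, 1.18 to 2.04).

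Of 14 further inhibitors of the pathway, Socs4 to Socs7 and Cish included, none passed 2-fold, 4 were higher and 6 lower beyond counting error (28.1% and 28% of all tested genes), and the median log2 difference was -0.028 (0.015 over all tested genes). The 3 that differed most were Pias4, Pias3 and Socs5. Pias4, a SUMO ligase that restrains STAT proteins, had 123 and 68 reads (0.551, 0.401 to 0.742). Pias3, named as an inhibitor of STAT3, had 54 and 89 reads (1.62, 1.15 to 2.33). Socs5 had a fold change of 0.663 (0.471 to 0.92).

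**Figure D4:**
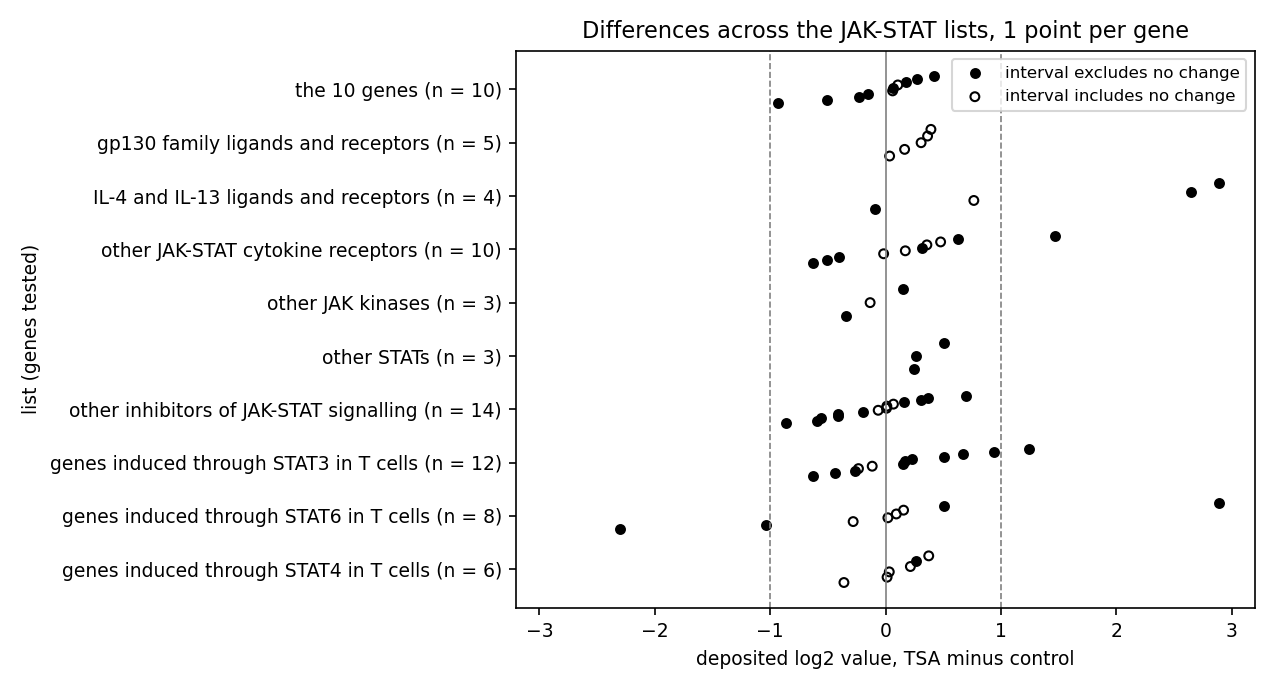
Deposited log2 value in TSA minus that in control (x axis) for each tested gene of the JAK-STAT lists, 1 point per gene. Filled points have a 95% interval that excludes no change, open points do not, and dashed lines stand at 2-fold. The 10 genes lie between -0.93 and 0.42, and points past 2-fold are found in the lists of IL-4 and IL-13 genes, other receptors, and STAT3- and STAT6-induced genes.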

How the data were processed

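RNA of 2 cultures (control and TSA, 1 library each, assigned by the treatment label) was prepared with a QuantSeq 3′ kit and sequenced as single-end 75-nt reads. Bowtie2, bedtools and mm10 are named in the submitters' processing notes and ExDEGA in the methods. Versions, annotation and normalization are not given in the sources used here. The authors deposited log2 values of a normalized count plus 1, with 3 decimals. Taken back from this scale, values fell on steps of 1.00497 (control) and 0.995121 (TSA) per read. Within 0.1 of a whole read lay 99.95% and 99.86% of values under 300, and reads were recovered by rounding, which above about 1000 reads is accurate to a few reads only.

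The log2 difference is the deposited TSA value minus the control value. It holds a pseudocount of 1, which understates the change of low genes. A gene was tested against 2-fold when either library held 10 or more of its reads, and 2-fold is the study's threshold. With 1 library per condition no p-value was computed. Intervals are exact (Clopper-Pearson for ratios and shares, conditional for ratios of ratios, Poisson for levels), at 95%. They and the floor of 3 reads (0.277 and 0.288 CPM) cover counting error only, since PCR copies could not be recognised.

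The genes and lists were chosen with earlier results of these data known. Named from the lists were genes past 2-fold, and those beyond counting error where a list had 6 or fewer, otherwise the 3 with the largest difference. Other genes were named after their values were seen. Some genes of the lists are not reported here. Steps were tested on simulated data. Software was scipy 1.17.1, matplotlib 3.10.9, pandas 2.3.3 and numpy 2.4.6 under Python 3.11.15. Alternatives in scaling, pseudocount, filter and threshold are given in the closing section.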

Additional observations from a re-analysis of the deposited data

How the results depend on the processing

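No paired analysis was possible because each condition had a single library, which also leaves no replicate to omit. Of 12 alternatives, 7 (5 scalings and 2 pseudocounts) can move a gene's log2 difference. Under these, none of 70 differences of the 10 genes changed sign, and 68 stayed within their counting interval. The other 2 were Stat3 scaled by total reads (0.14 on the log2 scale) and by total reads without Rn45s, the ribosomal RNA precursor (0.15). Relative to the deposited scaling these shift every gene alike, by 0.070 and 0.085, the largest shifts of the 5 scalings. With either one, 3 genes in place of 4 were lower beyond counting error, Il4ra being lost. At a 1.5-fold threshold 1 of the 10 genes, Socs2, was past it, as were 15 pathway genes and 3293 genes in all (27.1% of those tested, and 11.9% of those averaging 100 normalized counts or more). Past 2-fold, the 6 pathway genes and 1783 genes in all became 3 and 747 with at least 10 reads in both libraries, 1 and 419 at a mean of 50 normalized counts or more, and 3 and 703 when the whole interval had to be past 2-fold. With no filter on low counts 4017 genes passed. For genes with few reads, depth leaves wide intervals (Stat4 0.816 to 1.42).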

Other observations

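In the lists of genes induced through STAT proteins in T cells, 1 of 12 tested genes linked to STAT3, 3 of 8 linked to STAT6 and 0 of 6 linked to STAT4 were past 2-fold, beside 14.7% of all tested genes. Of 14 genes linked to STAT3, 12 were tested, 7 were higher and 3 lower beyond counting error, with a median log2 difference of 0.16. Of all tested genes, 28.1% were higher and 28% lower by that rule. The 3 with the largest differences were Il17f (17 and 42 reads, fold change 2.37, interval 1.36 to 4.58), Il17a (29 and 57 reads, 1.91, 1.22 to 3.16) and Irf4, a transcription factor of activated T cells (6675 and 10749 reads, 1.59, 1.55 to 1.64). Batf, which pairs with IRF4 on DNA and was named after its values were seen, had 362 and 270 reads, or 0.739-fold (0.628 to 0.867). All 8 genes linked to STAT6 were tested, and 2 were lower by more than 2-fold: Ccr4 (204 and 41 reads, 0.203, 0.139 to 0.279) and Il24, a cytokine gene (54 and 26 reads, 0.486, 0.287 to 0.775). Il4, which entered through the TSA library alone (1 and 14 reads), was higher, as was Maf, a regulator of Il4 that is also on the STAT3 list (1192 and 1706 reads, 1.42, 1.32 to 1.53). Of 7 genes linked to STAT4, 6 were tested, and Tbx21, which encodes T-bet, was the one beyond counting error (1974 and 2394 reads, 1.2, 1.13 to 1.28). These lists mix genes that differed in both directions, and their members also respond to other signals.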
